A study of Homo sapiens with 12 samples.

Results

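The genes described here encode the protein subunits of the mitochondrial respiratory chain that are made from nuclear DNA, sorted by complex. They were chosen by name: every gene of the count table whose symbol follows the naming pattern of subunits of complex I (NDUFA, NDUFB, NDUFC, NDUFS and NDUFV), complex II (SDHA to SDHD), complex III (UQCR genes and CYC1), complex IV (COX genes) or complex V (ATP5F1, ATP5M and ATP5P). The pattern found 136 of the 60670 genes counted, 38 in complex I, 4 in complex II, 9 in complex III, 16 in complex IV and 69 in complex V. Of the 69 in complex V, 51 are pseudogenes, which the pattern takes in because their names extend those of the parent genes, and 33 of these had 0 counts in every library. The other 85 members are subunit genes, their isoforms and paralogs. A filter on low counts left 78 members to test, 77 of them not pseudogenes, among 15916 genes tested in all.

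The respiratory chain passes electrons from NADH (through complex I) and succinate (through complex II) by way of coenzyme Q to complex III, and from there by cytochrome c to complex IV, which reduces oxygen. Complexes I, III and IV pump protons as they work, and complex V, the ATP synthase, uses the resulting gradient to make ATP. All but complex II are built from the products of both genomes, so nuclear and mitochondrial transcripts are needed for their assembly. In steroid-producing cells of the adrenal cortex, mitochondria also hold the enzymes of the first and last steps of steroid synthesis, which take electrons from NADPH through carriers of their own.

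The cells were H295R, a line established from a human adrenocortical carcinoma. Strand-specific paired-end libraries were made from its total RNA at 70% confluence, 4 from wild-type cells (WT), 4 from cells with the gene DLK1 knocked down (KD) and 4 from cells that over-express it (OE), to compare transcriptomes at different doses of DLK1. All 3 groups share the cell line, and nothing in the sources used here says how DLK1 was lowered or raised, whether the KD and OE cells are single clones or pools, or whether a control construct was used. Libraries are numbered 3 to 6 in each group, and no label states whether each came from its own culture. A p-value therefore reflects the variation among these libraries alone, part or all of which may be technical.

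Gene counts summed to 9303266 to 13797397 per library. Levels below are CPM, counts relative to library sizes scaled by TMM (a normalisation for library composition). DLK1, the targeted gene, stood at 2675 ± 132 CPM in WT, 1338 ± 113 in KD and 3213 ± 148 in OE (mean ± SD, n = 4 each), with no overlap between groups. The adrenocortical markers NR5A1, STAR and CYP11A1 had at least 2346 counts in every library, CYP17A1 and INHA at least 63, and MC2R at least 41. Markers of endothelial and immune cells had at most 7 counts in a library, as did fibroblast markers apart from DCN (0 to 8 counts) and COL1A1 (147 to 259 counts). KD replicate 3 stood apart. Its counts differed from those of the other KD libraries by a chi-square of 6.16 to 10.9 per degree of freedom, against at most 4.22 for other pairs within groups, and 4.99% of its counts came from the mitochondrial genome, against 6.65% to 8.37% in the other 11 libraries. In a bulk sample, fewer cells of a type and less RNA per cell cannot be told apart.

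Sequences are shown first for 3 subunit genes whose levels differed between groups, because their promoters hold short motifs known from genes of the respiratory chain. The letters are from RefSeq (GRCh38.p14, plus strand, 5′ to 3′), end before the first exon that GENCODE release 29 annotates, and carry in capitals each match to CCGGAA (the core bound by ETS factors such as GABP), GCATGCGC (the core bound by NRF1) or CTACANNTC (part of the ZNF143 motif), on either strand. COX7C, for a small membrane subunit of complex IV, holds the ETS core once and the ZNF143 stretch at 2 places in chr5:86617691-86617903. The second gene, COX5B, for a zinc-binding subunit of complex IV, holds the NRF1 core and the ETS core in chr2:97645812-97646039. Its lower level in OE than in WT was called in the main fit, but not in 11 of 20 alternative fits given below.
COX7C upstream: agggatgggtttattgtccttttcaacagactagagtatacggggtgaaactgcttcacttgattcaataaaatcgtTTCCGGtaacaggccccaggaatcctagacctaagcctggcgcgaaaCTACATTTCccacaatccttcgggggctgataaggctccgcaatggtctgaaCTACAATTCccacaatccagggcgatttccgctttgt
COX5B upstream: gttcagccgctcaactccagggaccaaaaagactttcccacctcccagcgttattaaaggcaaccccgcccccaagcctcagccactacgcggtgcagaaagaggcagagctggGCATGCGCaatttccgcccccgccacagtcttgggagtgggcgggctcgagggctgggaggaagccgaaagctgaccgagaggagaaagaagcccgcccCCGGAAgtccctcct
UQCRQ, for a small subunit of complex III, holds the ETS core at 54 and at 11 bases before its RefSeq start, in chr5:132866576-132866605 and chr5:132866612-132866641. Both places lie within exons that GENCODE annotates for UQCRQ or for GDF9 on the other strand, so only short stretches are shown.
UQCRQ first site: aaatggtatctcCCGGAAgttacctcacga
UQCRQ second site: agagcggcttccaaccttgCCGGAAatgac

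Of the members, 67 had entries in the promoter table, with 80 windows from 250 bases before to 50 bases after a start. The NRF1 core stood in 15 of the 80 windows (18.8%), against 4.62% of the 16246 windows of genes tested and 3.05% of all 35116. AAGATGGC, a core bound by YY1, stood in 13 windows (16.3%), against 4.57% of windows of genes tested and 2.89% of all. The ETS core stood in 31 windows (38.8%), against 25.8% and 17.2%. The ZNF143 stretch, which was looked for after the COX7C promoter had been read, stood in 5 windows (6.25%), against 4.67% and 3.66%. Among the 15 windows of members that differed between groups, 5 held the ETS core, 3 the NRF1 core, 1 the YY1 core and 1 the ZNF143 stretch. These matches describe letters, not binding.

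Levels in WT cells were compared between genes per kilobase of exon (the union of a gene's exons). ATP5F1B, for the catalytic beta subunit of the ATP synthase, was the highest member at 584 CPM per kilobase, and it alone gave 40.6% to 43.7% of the summed CPM of complex V in a library. The highest members of the other complexes were NDUFS5 in complex I (170), SDHB in complex II (29.03), UQCRH in complex III (105) and COX6B1 in complex IV (146 CPM per kilobase). The lowest tested members were NDUFA13 in complex I (0.717), SDHA in complex II (2.31), UQCR11 in complex III (5.70), COX6B2 in complex IV (1.43) and the pseudogene ATP5MC1P4 in complex V (1.78 CPM per kilobase), where ATP5PO (5.68) was the lowest that is no pseudogene. The order depends on which length is used: per kilobase of the principal transcript (APPRIS), COX4I1 led complex IV at 330, UQCRQ complex III at 279 and NDUFB4 complex I at 227, while ATP5F1B at 738 and SDHB at 62.0 still led theirs. Among the 74 members with a mean of at least 100 counts, the coefficient of variation over the 4 WT libraries had a median of 5.51% and ran from 1.30% (NDUFS8) to 16.0% (ATP5MF).

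Where a subunit has isoforms from separate genes, the broadly expressed isoform was the higher one in each pair measured. COX4I1, the subunit 4 isoform of most tissues, stood at 48.8 CPM per kilobase in WT, and COX4I2, the isoform known from lung, had 0 counts in all 12 libraries, where 3 counts in a library would be 0.217 to 0.326 CPM. COX6A1 stood at 27.1 and COX6A2, the heart and muscle isoform, at 0.088 CPM per kilobase. COX7A2 stood at 61.2 and its heart and muscle counterpart COX7A1 at 0.027, with 0 or 1 count in a library. COX7B stood at 22.9 and COX7B2 at 0.365, COX6B1 at 146 and the testis isoform COX6B2 at 1.43, and NDUFA4 at 46.0 and its paralog NDUFA4L2, known as a target of hypoxia signalling, at 0.230 CPM per kilobase. The 3 genes ATP5MC1, ATP5MC2 and ATP5MC3, which encode the same mature c subunit of the rotor ring, stood closer together at 24.9, 36.04 and 34.0 CPM per kilobase. In complex II, SDHB (iron-sulfur subunit, 29.03) and SDHD (membrane anchor, 23.2) lay above SDHC (the other anchor, 10.1) and SDHA (the flavoprotein, 2.31 CPM per kilobase). Undivided by length, SDHC was the highest at 143.4 CPM, against 71.5 for SDHB, 65.9 for SDHD and 19.3 for SDHA. The order per kilobase was the same with the principal transcript. SDHC is long by both measures (14160 and 13566 bases), so this is no separate check of its place.

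The 4 genes NDUFV2, NDUFA7, NDUFA13 and NDUFB8 of complex I, a complex whose other tested members ran from 121 to 2444 mean counts, were counted at far lower levels. NDUFV2, for an iron-sulfur core subunit, had 0 to 7 counts in a library, NDUFA7 0 to 9, NDUFA13 9 to 37 and NDUFB8 41 to 81. NDUFV2 and NDUFA7 did not pass the filter on low counts. In the GENCODE annotation, 73.3% of the 75-base windows of the longest NDUFV2 transcript also stand in transcripts of other genes, 72.5% of those of NDUFA7, 53.8% of those of NDUFB8 and 26.6% of those of NDUFA13. An example from NDUFV2 is a coding stretch at chr18:9119326-9119385 (GRCh38, plus strand), shown because the same letters stand in the overlapping gene ENSG00000265257 and in the processed pseudogene NDUFV2P1.
NDUFV2 shared stretch: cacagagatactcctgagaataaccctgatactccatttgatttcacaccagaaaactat
ENSG00000265257 had 0 counts in every library and NDUFV2P1 had 16 to 53, more than NDUFV2 itself. The gene that overlaps NDUFB8, ENSG00000255339, also had 0 counts. Leaving out 7 alternative isoforms and paralogs, all 4 members with a mean under 100 counts were among the 7 with at least 20% of windows shared, and 0 of the other 71 members fell under it. NDUFS3, SDHD and COX8A, with 38.2%, 22.3% and 23.6% of windows shared, had mean counts of 686, 760 and 478. How reads with several matches were counted is not given in the sources used here, and the part of shared sequence in these low counts was not tested.

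**Figure D1:**
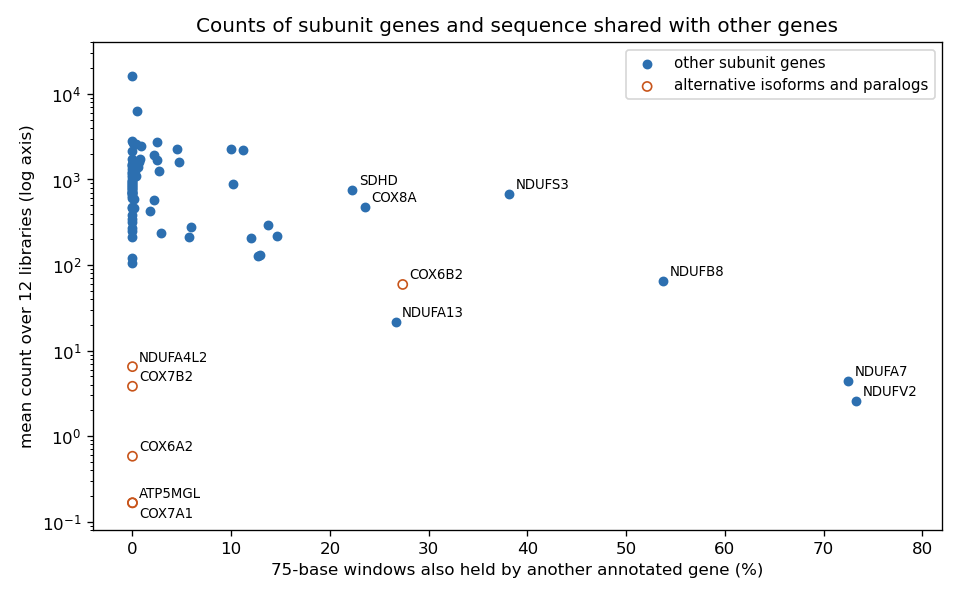
Mean count over the 12 libraries (log axis) of each member that is not a pseudogene, against the percentage of 75-base windows of its longest transcript that other annotated genes also hold. COX4I2, at 0 counts, is not drawn. NDUFV2 and NDUFA7, with 73.3% and 72.5% of windows shared, lie lowest among the filled points.

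KD was set against WT to see which subunit genes differed when DLK1 was lowered. Of the 78 members tested, 6 were lower in KD and 0 higher (edgeR quasi-likelihood test, adjusted p under 0.05 over all genes tested), where 5.22% of all genes tested were lower and 3.84% higher. The 6 are NDUFA4, NDUFA5, NDUFA12, UQCRQ, COX7C and ATP5F1E, and their share of members, 7.69%, lay near that of all genes. DESeq2 called 7 lower and 0 higher, where 7.28% of all genes it tested were lower, and 2 members were higher at an unadjusted p under 0.05 in edgeR. With library sizes alone as the scaling, 3 members were lower and 2 higher, ATP5F1A and UQCRC2. That fit called 1591 of the 15916 genes tested, 624 of them lower (3.92% of genes tested) and the rest higher. The median log2 fold change over the members tested was -0.09, and 54 of the 78 lay below 0, against 48.9% of all genes tested.

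COX7C had the smallest adjusted p of these members in KD. It lay at 196.9, 188.0, 189.5 and 175.7 CPM in WT replicates 3 to 6 and at 146.5, 139.2, 175.3 and 138.6 CPM in KD replicates 3 to 6. No KD library reached a WT library, but KD replicate 5 lay just below WT replicate 6. COX7C (ENSG00000127184, chromosome 5, 86617904 to 86620962) fell by 0.32 ± 0.06 (log2 fold change ± standard error, edgeR, adjusted p = 0.000104), and it remained called under all 20 alternative settings, each library left out in turn included.

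UQCRQ (ENSG00000164405, chromosome 5, 132866560 to 132868031) lay at 126.5, 116.5, 128.6 and 106.6 CPM in WT and at 89.0, 93.8, 107.4 and 98.3 CPM in KD. Its KD and WT libraries overlapped only between KD replicate 5 and WT replicate 6. The fall was 0.30 ± 0.06 on the log2 scale (edgeR, adjusted p = 0.000648) and was also called under all 20 settings. Exons of GDF9 on the other strand cover 20.8% of UQCRQ's exon bases, and the strand setting of the counting is not given in the sources used here.

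ATP5F1E, for the epsilon subunit of the central stalk of the ATP synthase, lay at 103.9, 112.8, 95.7 and 94.9 CPM in WT and at 85.5, 84.3, 95.0 and 81.0 CPM in KD. The groups overlapped through KD replicate 5 alone. It fell by 0.24 ± 0.06 (log2, edgeR, adjusted p = 0.0116), a call lost without WT replicate 4 (adjusted p = 0.0941) and without KD replicate 6 (0.0692).

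The 3 members of the complex I list lay at the margin. NDUFA12, an accessory subunit of the matrix arm, lay at 68.5 to 75.1 CPM in WT and at 53.6, 53.5, 74.0 and 64.5 CPM in KD, so that only KD replicate 5 was as high as WT. It fell by 0.25 ± 0.08 (log2, edgeR, adjusted p = 0.0275). NDUFA4, named for complex I and since placed in complex IV, lay at 155.8, 163.5, 173.6 and 160.8 CPM in WT and at 128.1, 136.2, 162.8 and 150.3 CPM in KD, again with KD replicate 5 inside the WT range. It fell by 0.18 ± 0.06 (adjusted p = 0.0290). NDUFA5, an accessory subunit of the matrix arm, went from 214.6 ± 11.0 to 192.8 ± 15.6 CPM (mean ± SD, n = 4) with overlap, and fell by 0.15 ± 0.05 (adjusted p = 0.0351). These calls were lost without KD replicate 3 (edgeR, adjusted p = 0.124 for NDUFA12, 0.153 for NDUFA4 and 0.159 for NDUFA5), but not there alone. Of the 20 alternative settings, NDUFA12 was lost in 7, NDUFA4 in 6 and NDUFA5 in 9. All 3 were lost with library sizes alone and with KD and WT alone fitted. Without KD replicate 5, 12 members were lower, the 6 above and NDUFB1, NDUFC2, NDUFS5, UQCRH, COX7B and ATP5MJ, while 5.16% of all genes tested in that fit were lower. DLK1 itself was at 1238 CPM in KD replicate 5, the lowest of the KD libraries. The part of replicates 3 and 5 in the number of calls was not tested further.

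Members that were not called gave the widest estimates. COX6B2 had the largest log2 fold change of any member in KD, -0.52 ± 0.23 (edgeR, adjusted p = 0.159), at 34 to 98 counts over all 12 libraries, and NDUFA13 had -0.41 ± 0.38 (adjusted p = 0.578). The largest value of complex II was that of SDHA (-0.21 ± 0.12, adjusted p = 0.300).

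**Figure D2:**
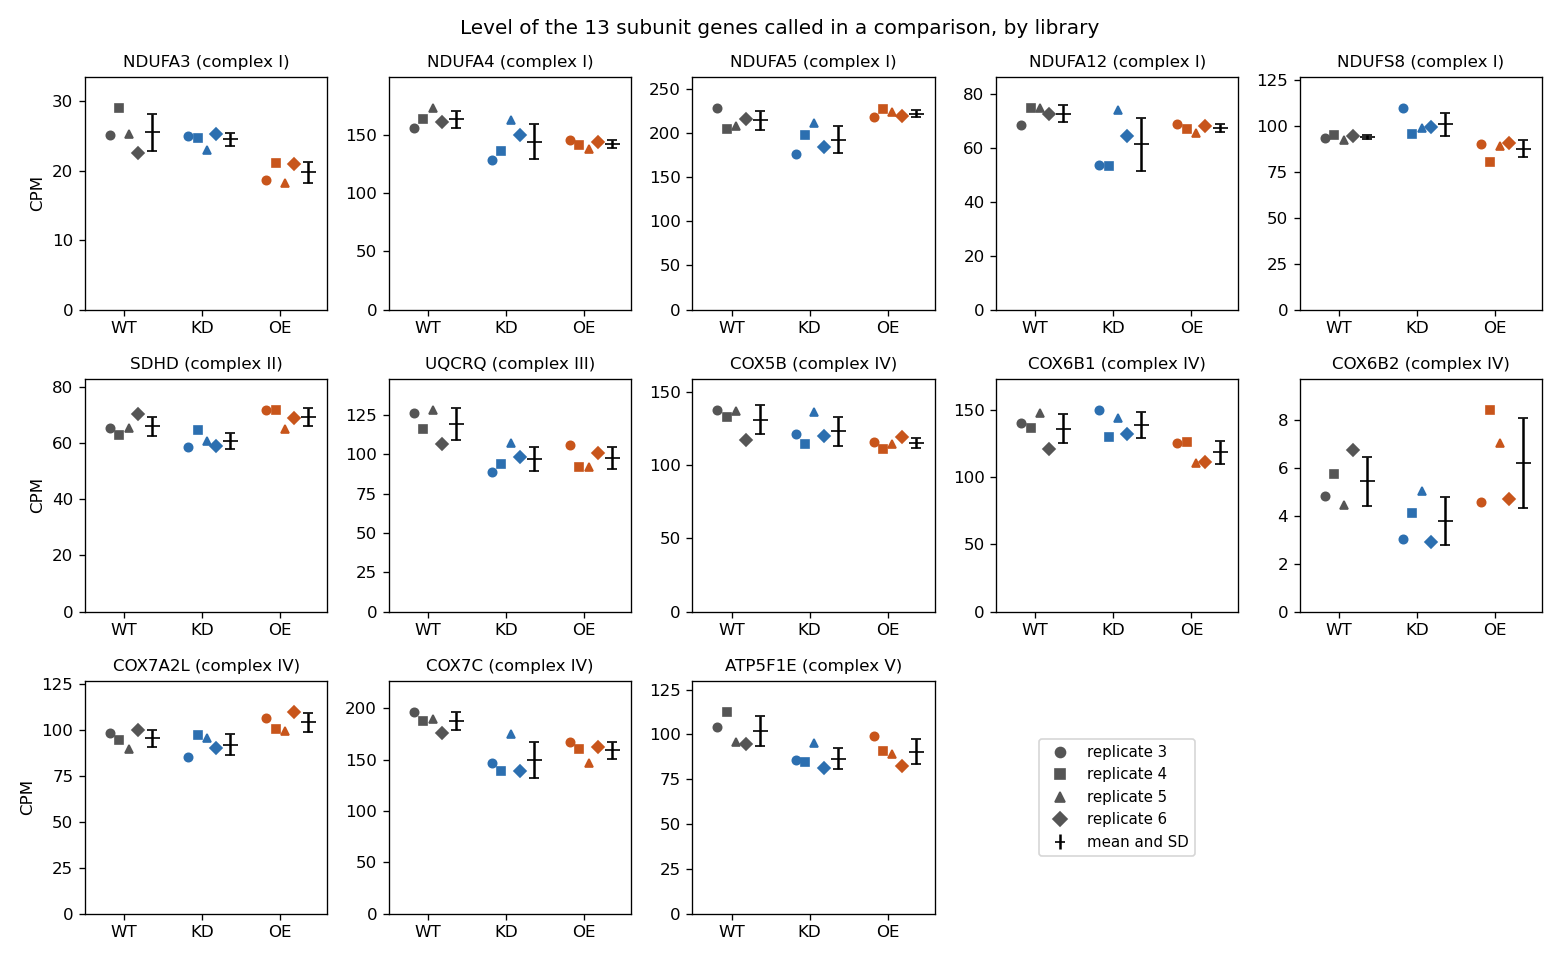
CPM of the 13 members called in at least 1 of the 3 comparisons, by library (WT grey, KD blue, OE orange, the marker shape giving the replicate number), with the mean and SD of each group (n = 4) as a black bar. COX7C and UQCRQ are low in KD and in OE, and KD replicate 5 (blue triangle) often lies near the WT libraries.

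OE was set against WT to see which members differed when DLK1 was raised. Again 6 of 78 were lower (7.69%) and 0 higher in edgeR, where 2.87% of all genes tested were lower and 2.13% higher. DESeq2 called 7 lower and 0 higher, where 3.71% of all genes it tested were lower, and 1 member was higher at an unadjusted p under 0.05 in edgeR. The 6 are NDUFA3, NDUFA4, UQCRQ, COX5B, COX6B1 and COX7C, so 3 of the 12 tested members of complex IV were lower and none of the 18 of complex V (0 by DESeq2 too, 5 lower at an unadjusted p under 0.05). NDUFA4 is counted under complex I by its name and is not among these 12. The median log2 fold change over the members was -0.08, with 58 of 78 below 0, against 49.4% of all genes tested. KD and OE were set against the same WT libraries, so values that fall in both comparisons are not independent.

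UQCRQ lay at 106.0, 91.9, 92.3 and 100.9 CPM in OE replicates 3 to 6, all below the lowest WT library (106.6). It fell by 0.29 ± 0.06 on the log2 scale (edgeR, adjusted p = 0.00154), and this was the call of OE against WT that all 20 settings kept. COX7C lay at 166.9, 160.0, 146.8 and 162.2 CPM, with no overlap with WT, and fell by 0.24 ± 0.06 (adjusted p = 0.00693). Without OE replicate 5, its adjusted p was 0.0507.

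NDUFA3, a small accessory subunit of the membrane arm of complex I, lay at 25.1, 29.1, 25.3 and 22.5 CPM in WT and at 18.7, 21.1, 18.2 and 21.0 CPM in OE. The groups did not overlap. It fell by 0.37 ± 0.10 (log2, edgeR, adjusted p = 0.0238), the largest change of any member in this comparison. NDUFA4 lay at 145.7, 141.5, 137.8 and 144.2 CPM in OE, below all WT libraries, and fell by 0.20 ± 0.06 (adjusted p = 0.0206). In complexes II and V the largest values were those of SDHC (-0.10 ± 0.05, adjusted p = 0.326) and ATP5MC1P4 (0.21 ± 0.52, adjusted p = 0.891), neither called.

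COX6B1, a subunit on the intermembrane side of complex IV, lay at 139.9, 136.2, 147.4 and 121.2 CPM in WT and at 125.4, 125.9, 110.8 and 111.5 CPM in OE. WT replicate 6 lay within the OE range. It fell by 0.21 ± 0.06 (log2, edgeR, adjusted p = 0.0285). COX5B went from 131.0 ± 9.74 to 115.0 ± 3.28 CPM (mean ± SD, n = 4) and fell by 0.19 ± 0.06 (adjusted p = 0.0409), with overlap through WT replicate 6 as well. With each of the 12 libraries left out in turn, the calls of NDUFA3 and NDUFA4 were each lost in 4 fits, COX6B1 in 5 and COX5B in 8. Over all 20 settings COX6B1 was lost in 7 and COX5B in 11. The number of members called lower was 1 without OE replicate 5 (UQCRQ), 2 without WT replicate 5 (COX7C and UQCRQ), 3 without WT replicate 4 or OE replicate 6, 9 without KD replicate 3, and 13 when WT and OE alone were fitted. The share of all genes called lower moved too, to 2.21% without OE replicate 5 and 1.98% without OE replicate 6. It was 2.25% when WT replicate 4 was dropped and 2.09% when WT replicate 5 was, and it stood at 3.70% without KD replicate 3 and 4.60% with WT and OE alone.

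**Figure D3:**
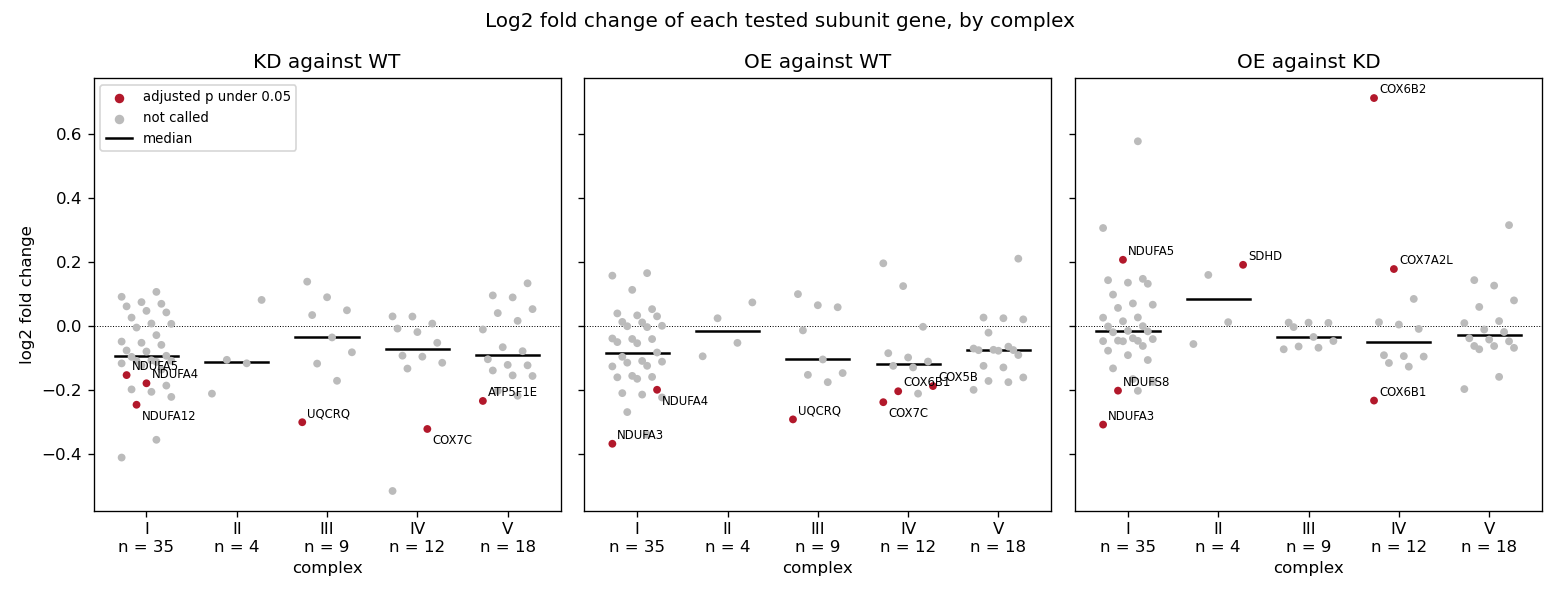
Log2 fold change of each of the 78 tested members by complex for the 3 comparisons, with called members (adjusted p under 0.05) in red and named, others in grey, and the median of each complex as a black line. Medians against WT lie below 0 in every complex in the fit drawn here, though those of complex III in KD and complex II in OE lay above 0 under some alternatives, and called members are a minority of each complex.

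OE against KD compares the highest with the lowest DLK1 level. In it 4 of 78 members were higher (5.13%) and 3 lower (3.85%), where 7.27% of all genes tested were higher and 6.55% lower. The higher members were NDUFA5, SDHD, COX6B2 and COX7A2L, and the lower ones NDUFA3, NDUFS8 and COX6B1. NDUFA5 lay at 176.1, 198.7, 211.6 and 184.9 CPM in KD and at 218.8, 227.1, 224.1 and 219.7 CPM in OE. No library overlapped, and it rose by 0.21 ± 0.05 (log2, edgeR, adjusted p = 0.00193). COX6B1 lay at 150.3, 129.9, 143.9 and 132.2 CPM in KD, above all OE libraries, and fell by 0.23 ± 0.06 (adjusted p = 0.00371). NDUFA5 and COX6B1 were called under all 20 settings.

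SDHD, a membrane anchor of succinate dehydrogenase, lay at 58.6, 64.7, 60.6 and 59.0 CPM in KD and at 71.9, 71.6, 65.0 and 68.8 CPM in OE. The groups did not overlap, by a margin of less than 1 CPM. It rose by 0.19 ± 0.07 (log2, edgeR, adjusted p = 0.0427), a call lost in 11 of the 20 settings. In addition, 4 pseudogenes share parts of its sequence. COX7A2L, which helps to join complexes III and IV into supercomplexes, lay at 85.2 to 97.2 CPM in KD and at 99.5 to 110.2 CPM in OE without overlap. Its rise was 0.18 ± 0.06 (adjusted p = 0.0333). COX6B2, the testis isoform, lay at 3.03, 4.11, 5.04 and 2.92 CPM in KD and at 4.58, 8.44, 7.04 and 4.71 CPM in OE. KD replicate 5 overlapped OE, and the rise was 0.71 ± 0.22 (adjusted p = 0.0227), the largest of any member, in the least deeply counted of the 13 called. NDUFA13, not called, had the largest value of complex I (0.58 ± 0.37, adjusted p = 0.339), and UQCRC2 that of complex III (-0.07 ± 0.05, adjusted p = 0.404).

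NDUFS8, a core subunit that carries iron-sulfur clusters, lay at 110.1, 95.4, 98.8 and 99.6 CPM in KD and at 90.3, 80.5, 89.3 and 90.9 CPM in OE. Its groups did not overlap, and it fell by 0.20 ± 0.06 (log2, edgeR, adjusted p = 0.0130). NDUFA3 fell by 0.31 ± 0.10 (adjusted p = 0.0356), from 24.5 ± 0.986 CPM in KD to 19.7 ± 1.51 CPM in OE (mean ± SD, n = 4), with no overlap. Without KD replicate 3, COX6B1 and NDUFA5 were the members still called, and 1801 of all genes were called, against 2200 in the main fit. Over the 20 settings, the call of NDUFA3 was lost in 7, COX7A2L in 5, COX6B2 in 4 and NDUFS8 in 2.

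Seen by complex, medians were small against WT. In KD they were -0.09 for complex I, -0.11 for II, -0.04 for III, -0.07 for IV and -0.09 for V on the log2 scale, where the median of all genes tested was 0.01. In OE they were -0.08, -0.02, -0.11, -0.12 and -0.08 in the same order. In OE against KD they were -0.02, 0.08, -0.04, -0.05 and -0.03. Against WT, 2 of these directions turned under an alternative. The median of complex III in KD lay above 0 without WT replicate 4 (0.0213) and without KD replicate 4 (0.0183). The median of complex II in OE lay below 0 in 15 of 20 alternatives and reached 0.0313 without OE replicate 4. In OE against KD, the medians of complexes I, III, IV and V lay above 0 in at least 1 alternative. No test was made of a complex, since its members are not replicates.

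Summed CPM showed how far this carried into the total of each complex. Complex I summed to 2478, 2458, 2505 and 2402 CPM in WT, to 2330, 2253, 2500 and 2307 CPM in KD and to 2371, 2335, 2248 and 2359 CPM in OE. All 4 OE libraries lay below all WT libraries, as did 3 of the 4 KD libraries, with KD replicate 5 inside the WT range. Complex IV summed to 1282 ± 58.3 CPM in WT, 1217 ± 73.4 in KD and 1176 ± 55.1 in OE (mean ± SD, n = 4), with overlap. Complex V summed to 3295 ± 72.9, 3312 ± 128 and 3245 ± 90.2 CPM, a difference between groups smaller than the SD within them. Complex III at 1059 ± 43.0, 1045 ± 53.7 and 1021 ± 19.5 CPM and complex II at 300.1 ± 6.87, 286.2 ± 6.34 and 294.9 ± 7.44 CPM also overlapped between groups.

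**Figure D4:**
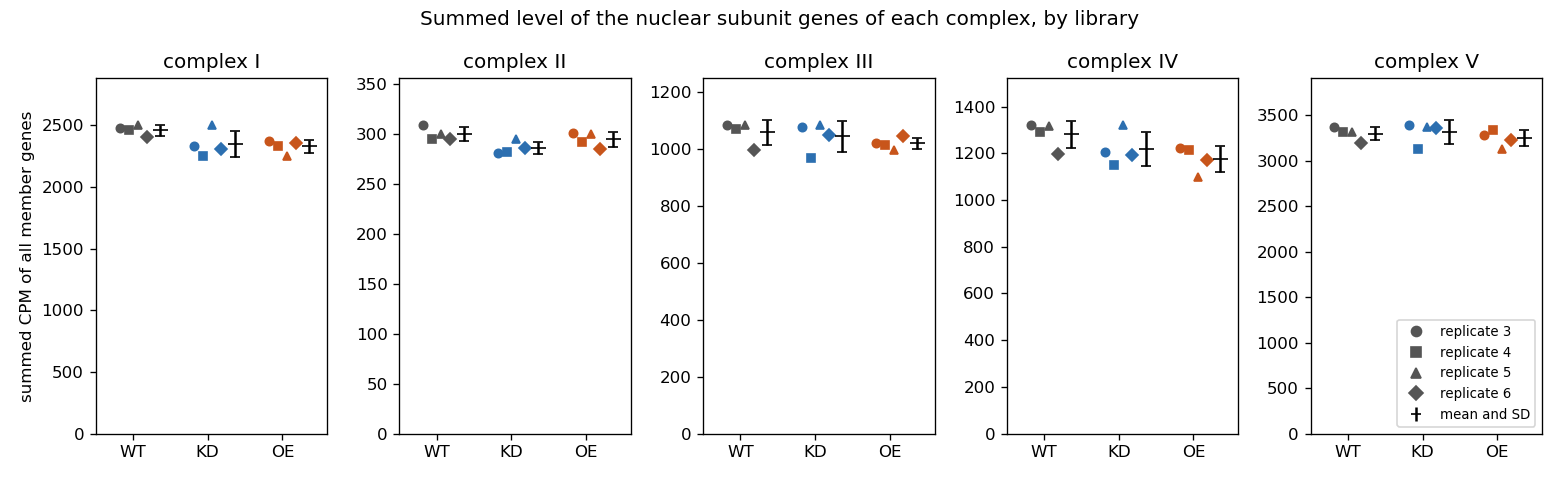
Summed CPM of all member genes of each complex by library (WT grey, KD blue, OE orange, the marker shape giving the replicate number), with the mean and SD of each group (n = 4) as a black bar and each axis starting at 0. Complex I is lower in all OE libraries than in WT, and the groups overlap in the other complexes.

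Within complexes I, III and V, the median log2 fold changes in KD were given by role. Members of each class lay on both sides of 0, except the 3 c-ring genes of complex V, which all lay below 0 (median -0.08). The 6 tested core subunits of complex I had a median of 0.07 and 1 of 6 lay below 0, while the 29 accessory subunits had a median of -0.11 with 24 below 0 and 3 called lower. The 29 follow the gene names and so include NDUFA4, since placed in complex IV, which is 1 of the 3. The 4 catalytic and core genes of complex III (CYC1, UQCRC1, UQCRC2 and UQCRFS1) had a median of 0.06, and its 5 small subunits -0.12 with UQCRQ called. In complex V the head and central stalk had a median of 0.04, although ATP5F1E of the stalk was called lower, while the peripheral stalk and the small membrane subunits both had a median of -0.14. In OE the medians were -0.00095 for complex I core and -0.11 for accessory subunits, and 0.02 and -0.15 for core and small subunits of complex III. Members that went against their class's median in KD include NDUFS1 (-0.11) and CYC1 (-0.04) among core genes and UQCR10 (0.05) and ATP5MF (0.09) among small ones. In complex II the catalytic SDHA had the lowest value (-0.21). These classes were drawn up with the values known, and no difference between them was tested.

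Small subunits have short transcripts, so the members' log2 fold changes were also set against the length of the principal transcript. The 36 tested members with transcripts of up to 750 bases had a median of -0.12 in KD and -0.13 in OE, where the 363 other genes of that length had -0.02 and -0.07. The 22 members over 750 and up to 1500 bases had -0.06 in both, and the 1649 other genes 0.01 and -0.02. The 12 members over 1500 and up to 3000 bases had 0.01 and -0.01, against 0.03 and -0.003 for the 4673 other genes. The 7 longer members had 0.03 and 0.04, against -0.005 and 0.01 for the 6251 other genes. The medians of the other genes did not rise steadily with length in KD, and their share called lower was highest in the longest range (8.46%). In OE their medians rose from each range to the next, and their share called lower was highest in the shortest range (6.89%, against 3.28% in the longest). Of the 36 shortest members, 4 were lower in KD and 4 in OE, where 4.13% and 6.89% of other genes of that length were. The fit with offsets for GC content and length took both from the longest transcript, not the principal one (1584 and 666 bases for COX7C). It is therefore no adjustment for the length used above. In that fit COX7C, UQCRQ and NDUFA4 were still called against WT in both comparisons. NDUFA5 (edgeR, adjusted p = 0.206 in KD), COX6B1 (0.0563 in OE) and COX5B (0.0710 in OE) were not. That fit added NDUFB11 and NDUFC2 as lower and ATP5F1A as higher in KD, 8 called in all, and ATP5F1E, NDUFB4 and UQCRB as lower in OE, 7 in all. Of all genes, 5.72% were lower in KD and 4.37% in OE in the same fit. Transcript length and role in a complex cannot be told apart for these genes.

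**Figure D5:**
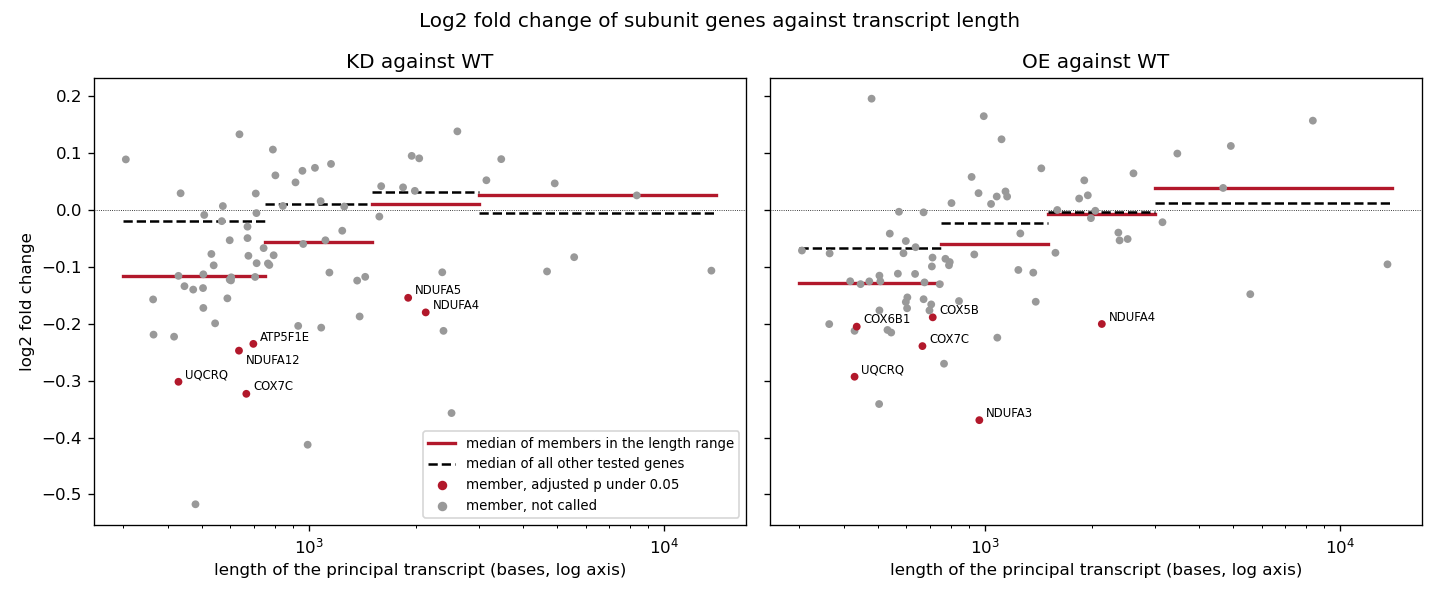
Log2 fold change of tested members against the length of the principal transcript (log axis) in KD and in OE against WT, called members in red and named. Red lines are the medians of members and dashed black lines those of all other tested genes in the same length range, and members up to 750 bases have medians of -0.12 and -0.13.

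Other genes of the pathway were looked at as lists. Of the 13 subunits that the mitochondrial genome encodes, 2 were lower in KD, MT-ATP8 by 0.56 ± 0.09 (log2, edgeR, adjusted p = 0.000583) and MT-ND3 by 0.47 ± 0.12 (adjusted p = 0.0458), and the median of the 13 was -0.30 in KD and -0.16 in OE. Without KD replicate 3, the library with the lowest share of mitochondrial counts, 10 of the 13 were lower and the median was -0.20. In that fit 4.66% of all genes tested were lower. DESeq2 on all libraries called 8 lower, and 7.28% of all genes it tested. In OE none of the 13 was called in edgeR (1 by DESeq2, 2 at an unadjusted p under 0.05), but 9 were lower without KD replicate 3 and 12 when WT and OE alone were fitted. Of all genes tested, 3.70% were lower in OE without KD replicate 3 and 4.60% with WT and OE alone. MT-ATP8 rose in OE against KD by 0.28 ± 0.09 (adjusted p = 0.0491). Of the 19 alternatives that test these genes, MT-ATP8 was called in all in KD, but its call in OE against KD was lost in 9 (adjusted p up to 0.127) and that of MT-ND3 in KD in 15 (up to 0.128).

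Of 18 assembly factors of complex I tested, NDUFAF2 fell in KD by 0.45 ± 0.13 (edgeR, adjusted p = 0.0222). TIMMDC1, which helps to build the membrane arm, fell in OE by 0.22 ± 0.07 (adjusted p = 0.0424), and in OE against KD it and NDUFAF8 fell. Among 9 factors of complex III, LYRM7, a chaperone for the Rieske protein, fell in KD by 0.30 ± 0.08 (adjusted p = 0.0114). UQCC5 fell in OE by 0.28 ± 0.08 (adjusted p = 0.0383), and TTC19 rose in OE against KD by 0.34 ± 0.08 (adjusted p = 0.00083). Of the 28 tested factors of complex IV, TMEM177 was higher in OE against WT, and COA5 and HIGD1A in OE against KD. The 4 factors of complex II, the 5 of complex V and the 4 tested subunits that the naming pattern misses or that stand beside it held no called gene in edgeR or DESeq2, with 1 factor of complex II at an unadjusted p under 0.05 in KD and 1 of complex V in OE. Medians of the assembly lists ran from -0.10 (complex II) to 0.15 (complex V) in KD.

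Among 14 genes of the mobile carriers and coenzyme Q synthesis, COQ8A, a kinase-like protein of coenzyme Q synthesis, rose from 46.5 ± 3.67 CPM in WT to 57.9 ± 5.08 in KD and 57.6 ± 1.60 in OE (mean ± SD, n = 4; adjusted p = 0.00246 and 0.00543, edgeR). Of 15 regulators, POLG, the mitochondrial DNA polymerase, rose by 0.23 ± 0.06 in KD (adjusted p = 0.00483) and by 0.21 ± 0.06 in OE (adjusted p = 0.0230). PPRC1, a coactivator of the PGC-1 family, rose in KD by 0.26 ± 0.07 (adjusted p = 0.00851). In OE against KD, GABPA, the DNA-binding subunit of GABP, rose by 0.30 ± 0.06 (adjusted p = 0.000608), and POLRMT, the mitochondrial RNA polymerase, fell by 0.21 ± 0.07 (adjusted p = 0.0424). GABPA itself was not called against WT in KD (-0.15 ± 0.06, adjusted p = 0.145) or in OE (0.15 ± 0.06, adjusted p = 0.203).

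These calls differed in how far they held. Outside the mitochondrial genome, those of COQ8A in KD and in OE, POLG in KD, and NDUFAF8, TTC19 and GABPA in OE against KD were made in all 20 alternatives. The others were lost in some: PPRC1 in 1 (adjusted p up to 0.0699), LYRM7 in 2, NDUFAF2, TMEM177, COA5 and TIMMDC1 (OE against KD) in 4, POLG in OE and HIGD1A in 5, UQCC5 in 7, and POLRMT and TIMMDC1 (OE against WT) in 8.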

How the data were processed

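RNA of 12 libraries was measured as gene counts. The authors deposited a table of raw counts, whole numbers per Ensembl gene and library. Per the submitters' processing notes, FastQC, HISAT2 1.03, Subread featureCounts and DESeq2 were used on GRCh38. The annotation release, the strand setting and the handling of reads with several matches are not stated in any label or header, so counts of genes with pseudogenes or overlapping genes are less certain. The 3 lines that name no gene (stray coordinates and a line of library totals) and 1 gene with blank counts were left out.

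Coordinates and transcript lengths came from GENCODE release 29 (58452 genes found by identifier) and promoters from RefSeq. The test was the quasi-likelihood F test of edgeR 4.0.16 (R 4.3.3) after filterByExpr (minimum count 10, minimum total 15) and TMM. The robust fit took in 12 libraries, leaving 9 residual degrees of freedom, and p-values were adjusted by Benjamini-Hochberg over 15916 genes. The common biological coefficient of variation was 7.38%. A standard error is the size of the log2 fold change over the root of its F statistic. Alternatives were RLE size factors, library sizes alone, DESeq2 1.42.0, no filter, a replicate block, GC and length offsets, no mitochondrial genes, 2 groups alone and each library left out. The offsets used the GC content and length of the longest transcript. The test was tried on simulated counts with known changes. Several changes called here were smaller than the smallest one planted, so that trial cannot speak for them.

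Members and lists were chosen with earlier results of these data known. Named are COX7C, members called in any comparison, those with the largest change or the highest or lowest level in a complex, isoform families, and called genes of the other lists, up to 6 a list. NDUFA7, NDUFB8 and other members described for shared sequence, and members called under 1 alternative, were named after their values were seen.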

Additional observations from a re-analysis of the deposited data

Results flagged for a closer look

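In 57 groups of 4 libraries (13 called members, the 5 complexes and all members together, in 3 groups), a single library stood far from the other 3 in 2 groups, where chance alone flags about 1 group in 20. NDUFS8 was at 80.5 CPM in OE replicate 4, and at 89.3 to 90.9 CPM in the other OE libraries. Its lower level in OE against KD was not called without that library (adjusted p = 0.0786). The summed CPM of complex V was 3121 in KD replicate 4 and 3361 to 3393 in the other KD libraries.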

How the results depend on the processing

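COX7C and UQCRQ in KD, UQCRQ in OE, and NDUFA5 and COX6B1 in OE against KD were called in all 20 alternative fits. The other 14 calls were each lost in at least 1, 80 times in all, and none changed sign. Members called numbered 6 in KD, 6 in OE and 7 in OE against KD. Of all genes, 1442, 796 and 2200 were called in the same order. With a replicate block the members called numbered 5, 5 and 6, all of them among the main calls, and all genes called 1327, 735 and 2082. Same-numbered libraries did not deviate together (correlations from -0.03 to 0.07), so the numbers were not taken as pairs. Fits of 2 groups alone gave 3 members in KD and 13 in OE, and no filter gave 4 in OE against KD. Those fits called 1266, 1236 and 2004 of all genes. Leaving out 1 library gave 3 to 12 in KD, 1 to 9 in OE and 2 to 10 in OE against KD. All genes called moved too, from 1032 to 1557 in KD, 563 to 1064 in OE and 1660 to 2220 in OE against KD. With GC and length offsets the median log2 fold change was -0.059 for complex II in KD and 0.0144 for complex III in OE against KD, a median that ran from -0.0601 to 0.0024 without 1 library. The pseudogene ATP5MC1P4, not called, reversed to -0.1156 in OE without WT replicate 3 and ran up to 0.6207 without WT replicate 6. Per kilobase of the longest transcript, WT levels were 62.0 (SDHB), 214 (UQCRH), 204 (COX6B1), 118 (COX7C) and 738 CPM (ATP5F1B). Per kilobase of the principal transcript, a length chosen after seeing the data, they were 62.0, 244, 313, 282 and 738 CPM. The causes of these moves were not tested. Depth limits the 4 tested members with a mean under 100 counts: NDUFB8, COX6B2, NDUFA13 and ATP5MC1P4 had standard errors of 0.20, 0.23, 0.38 and 0.53 in KD.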
